A study of Mus musculus with 9 samples.

Results

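Interferon-stimulated genes are the transcripts that a cell raises when interferon reaches it, and a list of 39 of them was followed through explants of neonatal mouse aortic valve. A gene of the list counted as measured where the platform's annotation ties a probe set to its symbol alone, which held for 36 of the 39, among 19934 genes in all with such a probe set. Isg15 and Gbp2 lie on probe sets that also list a second gene, and Ifi44 has no listed probe set, so these 3 were not analysed here. Irf1 has 2 probe sets, and the brighter one stands for it.

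The explants came from C57BL/6J pups at postnatal day 1, and every group was cultured for 48 hours on floating filters in medium with serum. The first group received all-trans retinoic acid (ATRA) at 1 µmol/L, dissolved in DMSO, and the second received LE540, an antagonist of the retinoic acid receptors. For LE540 the labels leave dose and solvent unstated, so the 2 compounds cannot be taken as matched in dose. The control group received DMSO at 0.001%. Each group had 3 arrays, each made from 1 pool of valves of 5 to 6 pups whose sexes are not stated. The labels name no interferon or virus in any group.

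Type I interferons bind a receptor made of Ifnar1 and Ifnar2, and kinases of the JAK family then start signalling through a complex that holds Stat2 and Irf9. The complex binds the interferon-stimulated response element (ISRE) in front of its targets, while the gamma-activated site (GAS) serves the response to interferon gamma. Upstream of the ligands stand sensors of foreign nucleic acid such as Ddx58 and Ifih1, which are themselves induced by interferon. Ddx58 encodes RIG-I, which took its name from its induction by retinoic acid in human leukaemia cells.

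Promoter stretches of 7 of the 11 members whose windows hold the core of the ISRE are shown. The genes of these 7 have values by array below or, for Rsad2, ranges, and Stat2, also described by array, is left out. The stretches were chosen after the values were seen. They come from RefSeq (assembly GRCm38.p6), whose promoter table gives 250 bases before to 50 after a start site and held 27 of the 36 measured members by symbol. Capitals mark the ISRE core, which is GAAA, any 2 bases and GAAA again, or its reverse complement. Each line reads 5′ to 3′ along the gene, and distances run from the start site to the first base of the core.
Ifit3 (chr19:34583348-34583441, plus strand, cores 156 and 122 bases before the start): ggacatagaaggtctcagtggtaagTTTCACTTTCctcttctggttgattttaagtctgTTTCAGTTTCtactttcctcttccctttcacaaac
Ifit1 (chr19:34640760-34640838, plus strand, cores 104 and 85 bases before): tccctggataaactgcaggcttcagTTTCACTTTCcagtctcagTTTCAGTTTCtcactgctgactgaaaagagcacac
Gbp3 (chr3:142559974-142560039, plus strand, overlapping cores 45 and 39 bases before): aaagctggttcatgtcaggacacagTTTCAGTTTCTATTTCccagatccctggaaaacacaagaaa
Rsad2 (chr12:26456538-26456597, minus strand, core 120 bases before): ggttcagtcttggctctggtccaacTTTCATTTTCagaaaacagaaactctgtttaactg
Ddx58 (chr4:40239804-40239833, minus strand, core 2 bases after the start): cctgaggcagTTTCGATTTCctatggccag
Eif2ak2 (chr17:78882535-78882564, minus strand, core 18 bases after): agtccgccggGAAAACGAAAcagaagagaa
Ifih1 (chr2:62646206-62646233, minus strand, core 32 bases after): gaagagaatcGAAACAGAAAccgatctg

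On either strand, the ISRE core stood in the windows of 11 of 27 members (40.7%), against 3.99% of the 27025 genes in the table. These were Ifit1, Ifit3, Oas1a, Oas3, Rsad2, Stat2, Bst2, Ddx58, Ifih1, Gbp3 and Eif2ak2. The GAS motif, which is TTC, any 3 bases and GAA, was in the windows of 7 of 27 members (25.9%), against 9.55% of all genes, and in Bst2 it overlapped the ISRE core. A match of letters is a description of the window and not a bound site.

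The arrays had medians of 124 to 128 intensity units, on the linear scale of the robust multi-array average (RMA), and their lower quartiles ran from 57.7 to 63.0. Values given by array are these intensities, and changes are differences of their log2. Each of the 12 markers of valve interstitial cells lay above the lower quartile on at least 1 array, and Vim had 6031, 5571 and 6252 on ATRA arrays, 4496, 6506 and 5540.3 on LE540 arrays and 6118, 6251 and 6611 on DMSO arrays. The only marker of these cells to pass limma was Vcan, a matrix proteoglycan, higher in ATRA than in LE540 by 1.29 on the log2 scale (adjusted p = 0.0608), a call lost without ATRA replicate 3, LE540 replicate 1 or 3, or any DMSO array (adjusted p = 0.101 to 0.192). The 12 markers summed to 28380 to 32098 on ATRA arrays, 15655 to 25003 on LE540 arrays and 21553 to 27700.5 on DMSO arrays, and none was at 0. Their scores were 0.37, 0.18 and 0.34 on ATRA arrays, -0.68, -0.21 and -0.013 on LE540 arrays and 0.14, -0.23 and 0.11 on DMSO arrays. Of the 12, 9 lay above 0 in ATRA vs DMSO (median log2 change 0.28), 2 in LE540 vs DMSO (median -0.26) and 11 in ATRA vs LE540 (median 0.54), and their part in the members' values was not tested. LE540 replicate 1 stood apart on the first principal component of all probe sets, at 63.7 with the other arrays between -21.5 and 13.9. DMSO replicate 1 stood apart for the interferon-stimulated genes themselves, as described next.

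As a group, the members differed less between treatment means than between DMSO replicate 1 and the other 2 DMSO arrays. Means of 3 arrays vary less than single arrays, so these 2 differences are not alike in kind. The score of the 36 genes, which is the mean of their log2 values after centring each gene on its 9 arrays, was -0.11, -0.078 and -0.02 on ATRA arrays, -0.045, -0.14 and 0.16 on LE540 arrays and 0.46, -0.11 and -0.11 on DMSO arrays. Its means were -0.069 ± 0.045 with ATRA, -0.010 ± 0.15 with LE540 and 0.079 ± 0.33 with DMSO (SD, n = 3 each). DMSO replicate 1 had the highest score and LE540 replicate 3 the next, and the other 7 arrays lay between -0.14 and -0.020. DMSO replicate 1 was the brightest of the 9 arrays for 14 of 36 members (38.9%), against 9.48% of all probe sets tested, and the dimmest for none of them, against 11.4%. It exceeded the geometric mean of the other 2 DMSO arrays by over 1.5-fold for 12 of 36 members (33.3%), against 2.16% of all probe sets. Between the highest and the lowest array, 19 of 36 members (52.8%) differed by over 2-fold, against 21.7% of all probe sets.

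**Figure D1:**
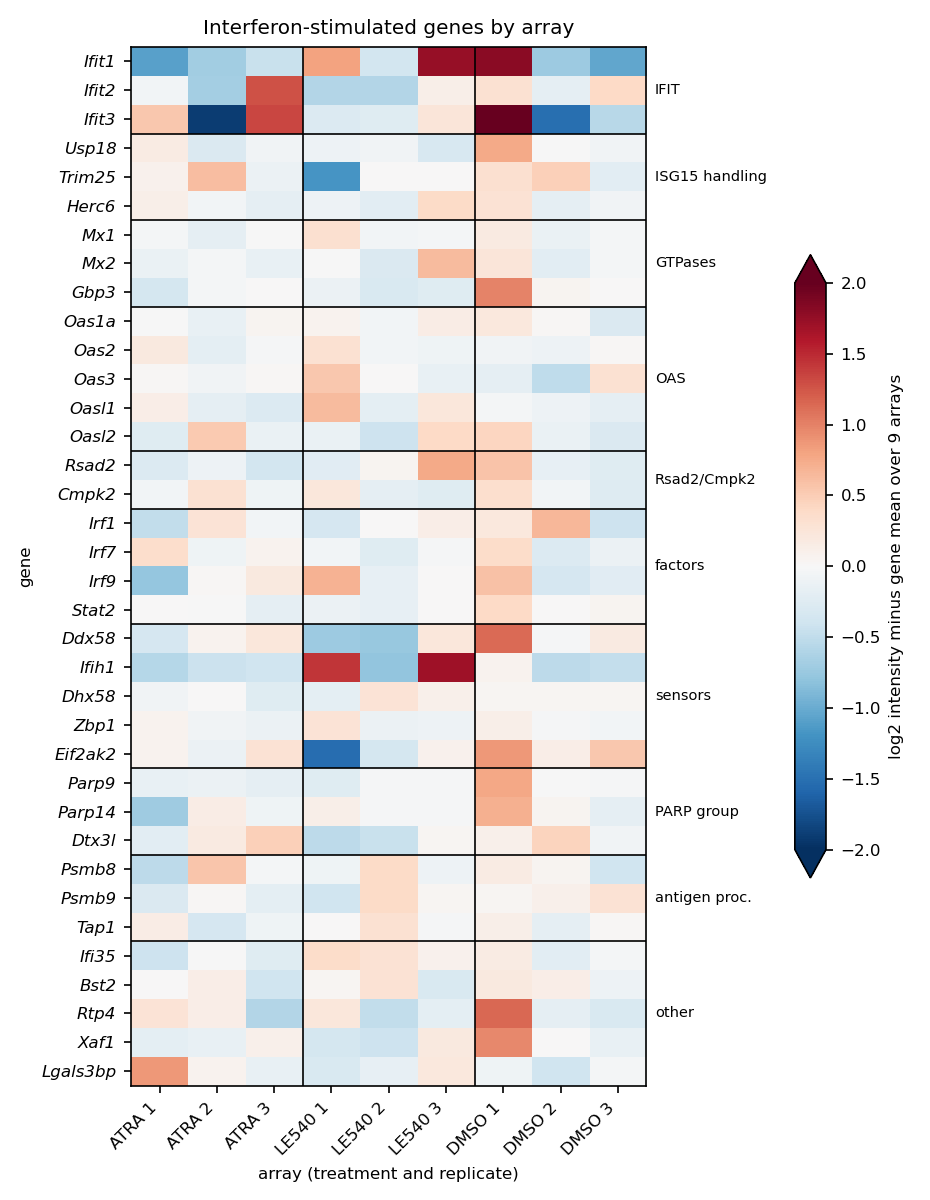
Log2 intensity of the 36 measured interferon-stimulated genes on each of the 9 arrays, as the difference from the gene's mean over the 9 arrays (colour scale from -2 to 2, values beyond it shown in the end colours), with genes grouped by role and arrays ordered ATRA, LE540, DMSO. The column of DMSO replicate 1 is red for most genes and holds the highest value for 14 of them, and Ifih1 stands out on LE540 replicates 1 and 3.

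Neither treatment changed an interferon-stimulated gene beyond the threshold used (an adjusted p under 0.1 in limma, a linear model fitted over all probe sets, without the 2-fold minimum that the series also names). In ATRA vs DMSO, 0 of 36 members passed limma, against 0.0812% of the 23397 probe sets tested, and 0 had an unadjusted p under 0.05, against 4.7% of all probe sets and 2.36% in the lower direction. In LE540 vs DMSO, 0 of 36 passed, against 0.0299%, and 3 had an unadjusted p under 0.05 (8.33%, against 8.8% of all probe sets), namely Eif2ak2, Ddx58 and Gbp3, each lower with LE540 (4.33% of all). In ATRA vs LE540, 0 of 36 passed, against 0.603%, and 1 had an unadjusted p under 0.05 (Ifi35, lower with ATRA, 2.78% against 9.54% of all, and 4.72% in that direction). The 2 comparisons with DMSO share the DMSO arrays. With LE540 replicate 2 left out, Ifih1 passed limma in LE540 vs DMSO (adjusted p = 0.0332) and in ATRA vs LE540 (adjusted p = 0.00907). That fit called 98 of all probe sets in LE540 vs DMSO and 278 in ATRA vs LE540, against 7 and 141 with all arrays. The array left out is the LE540 array on which Ifih1 was low (65.95). No other single array, when left out, brought a member past the threshold in any of the 3 comparisons.

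The median log2 change over the 36 members was -0.13 in ATRA vs DMSO, against -0.0057 over all probe sets, and 27 members lay below 0 (75%, against 51.5%). In the same comparison 1 of 10 cardiomyocyte markers lay above 0 (median -0.32) and 12 of 12 endothelial markers did (median 0.31), with 0 of either list past the threshold, and their part in the members' median was not tested. The members' median was -0.061 in LE540 vs DMSO, against 0.021, with 19 members below 0 (52.8%, against 45.3%). In ATRA vs LE540 it was -0.059, against -0.029, with 21 below 0 (58.3%, against 56.9%). Without DMSO replicate 1 the medians were 0.018 in ATRA vs DMSO and 0.091 in LE540 vs DMSO, so the side of 0 on which both lie rests on that array. Without LE540 replicate 3 the median in ATRA vs LE540 was 0.0021. Single changes ran from -0.75 for Ifit1 to 0.44 for Lgals3bp in ATRA vs DMSO, and from -1.11 for Eif2ak2 to 1.09 for Ifih1 in LE540 vs DMSO. The 95% interval of the change lay within 2-fold in either direction for 26 of 36 members in each comparison with DMSO and for 27 in ATRA vs LE540. Many members have dim probe sets, whose changes RMA compresses, so such an interval does not exclude a larger change of the transcript. Arrays of ATRA and DMSO did not overlap for 4 members (11.1%, against 11.3% of all probe sets), Gbp3, Parp9, Psmb9 and Dhx58, each lower with ATRA (6.34% of all). Those of LE540 and DMSO did not overlap for 3 members (8.33%, against 12.6%), Eif2ak2, Gbp3 and Usp18, each lower with LE540 (5.86% of all). Those of ATRA and LE540 did not overlap for 2 members (5.56%, against 11.5%), Ifit1 and Ifi35, both lower with ATRA (6.24% of all).

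**Figure D2:**
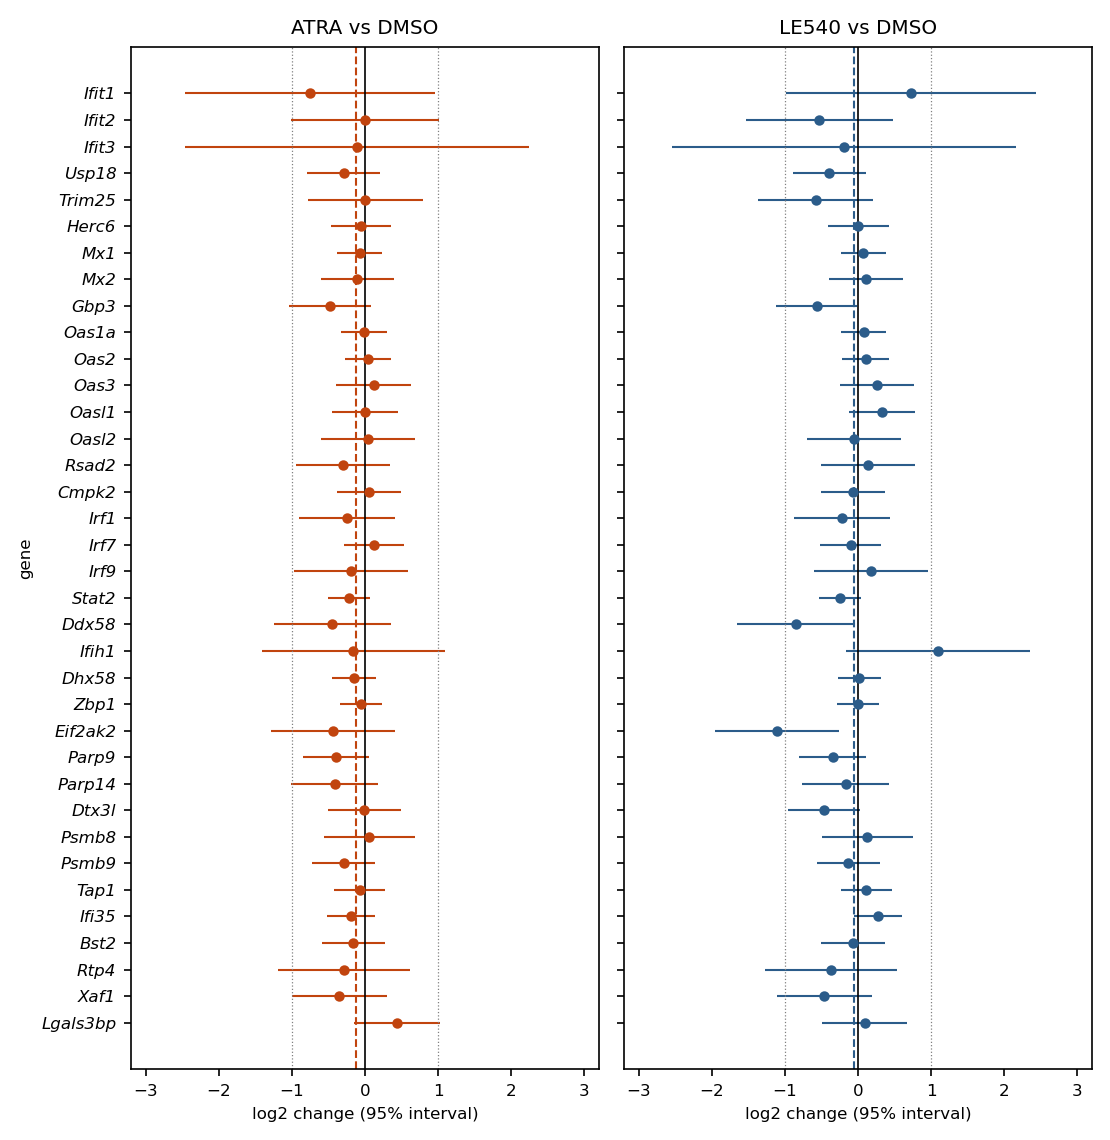
Log2 change of each of the 36 genes in ATRA vs DMSO (left) and LE540 vs DMSO (right) with its 95% interval from limma (3 arrays a group), a solid line at 0, dotted lines at 2-fold and a dashed line at the median of the members. Intervals are widest for Ifit1, Ifit3 and Ifih1, and those of Eif2ak2, Ddx58 and Gbp3 lie below 0 in LE540 vs DMSO.

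**Figure D3:**
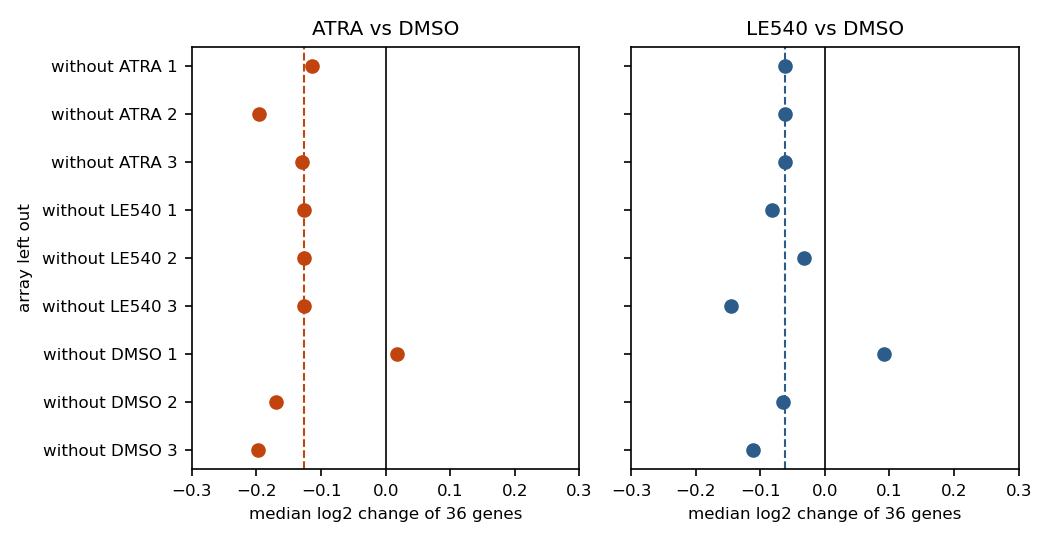
Median log2 change of the 36 genes with each of the 9 arrays left out in turn, in ATRA vs DMSO (left) and LE540 vs DMSO (right); the dashed line is the median with all arrays. The median crosses 0 in both comparisons only without DMSO replicate 1, to 0.018 and 0.091.

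The largest log2 differences of the list in LE540 vs DMSO, in opposite directions, were those of 2 sensors of double-stranded RNA, Eif2ak2 and Ifih1. Genes described on every array are those that the naming rule picked, together with Ifit3, Ifih1, Ddx58, Rtp4, Xaf1 and Ifi35, which were added after their values were seen. Ifih1 (probe set 10483110), the sensor MDA5 of long double-stranded RNA, had 76.7, 84.05 and 86.3 on ATRA arrays and 305, 65.95 and 367 on LE540 arrays, against 119, 79.3 and 81.3 on DMSO arrays. LE540 replicates 1 and 3 were thus high and LE540 replicate 2 was the lowest of the 9 arrays, below every ATRA and DMSO array. Its change was 1.09 in LE540 vs DMSO (95% interval -0.17 to 2.35, limma adjusted p = 0.597) and -1.24 in ATRA vs LE540 (adjusted p = 0.528). Without LE540 replicate 2 these were 1.87 and -2.02, and without LE540 replicate 3 they were 0.63 and -0.79. In ATRA vs DMSO it was -0.16 (SE 0.55, adjusted p = 0.999), and the arrays of the 2 groups overlapped.

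Ddx58 (probe set 10512067), the RIG-I gene, had 260.2, 346 and 387 on ATRA arrays and 200, 195 and 386 on LE540 arrays, against 723, 325 and 374 on DMSO arrays. DMSO replicate 1 was the highest array and LE540 replicates 1 and 2 the lowest, and arrays of both treatments overlapped those of DMSO. The change was -0.45 in ATRA vs DMSO (95% interval -1.25 to 0.36, limma adjusted p = 0.999). In LE540 vs DMSO it was -0.85 (-1.65 to -0.045, adjusted p = 0.555). Without DMSO replicate 1 the values were -0.095 in ATRA vs DMSO and -0.50 in LE540 vs DMSO.

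Eif2ak2 (probe set 10452980), the kinase PKR that stops translation on sensing double-stranded RNA, had 248, 217 and 289 on ATRA arrays and 81.8, 184 and 251 on LE540 arrays, against 431, 259 and 342 on DMSO arrays. The 3 LE540 arrays lay below the 3 DMSO arrays, with LE540 replicate 1 far below the other 8. The change in LE540 vs DMSO was -1.11 (SE 0.37, limma adjusted p = 0.535). Leaving out LE540 replicate 1 gave -0.65. In ATRA vs DMSO it was -0.43 (adjusted p = 0.999) and -0.25 without DMSO replicate 1, and ATRA and DMSO arrays overlapped.

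Dhx58 (probe set 10391207), the regulator LGP2 of these sensors, had 73.4, 77.4 and 65.4 on ATRA arrays and 67.5, 93.3 and 82.98 on LE540 arrays, against 79.7 on each of the 3 DMSO arrays. The ATRA arrays all lay below that value, with a difference of -0.15 on the log2 scale (limma adjusted p = 0.999) and of -0.080 without ATRA replicate 3. Zbp1, a sensor of left-handed nucleic acid, differed by -0.055 in ATRA vs DMSO and 0.0061 in LE540 vs DMSO, neither past the threshold.

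The transcription factors that carry the signal had differences from DMSO of at most 0.25 in size. Stat2 (probe set 10367224) had 173, 172 and 152 on ATRA arrays and 158, 154 and 173 on LE540 arrays, against 228, 173 and 179 on DMSO arrays. No treated array exceeded the lowest DMSO array, but 1 array of each treatment had the same 173. The changes were -0.21 in ATRA vs DMSO and -0.25 in LE540 vs DMSO (SE 0.13 each, limma adjusted p = 0.999 and 0.599), and -0.090 and -0.12 without DMSO replicate 1.

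Irf9 (probe set 10415319), the DNA-binding partner of Stat2, had 95.95, 166 and 187 on ATRA arrays and 265, 146 and 165 on LE540 arrays, against 245, 129 and 139 on DMSO arrays. Replicate 1 was the lowest of the ATRA arrays and the highest of the LE540 and DMSO arrays, and the groups overlapped. Irf7 (probe set 10569102), the factor that amplifies interferon production, had 138, 102 and 114 on ATRA arrays and 104, 91 and 106 on LE540 arrays, against 140.1, 89.4 and 99.5 on DMSO arrays. Replicate 1 was the highest array in the ATRA and DMSO groups, and the groups overlapped. Log2 changes of Irf9 were -0.19 in ATRA vs DMSO and 0.18 in LE540 vs DMSO, and those of Irf7 were 0.12 and -0.10 in the same comparisons, none past the threshold. Irf1, a factor induced by interferon gamma, differed by -0.25 and -0.22 with its brighter probe set, and its other probe set averaged 115 ± 9.74 on ATRA arrays, 115 ± 1.86 on LE540 arrays and 122 ± 1.59 on DMSO arrays (SD, n = 3 each).

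The IFIT genes, whose proteins bind foreign or uncapped RNA and block its translation, include the 2 members with the widest range over arrays, Ifit3 and Ifit1. Ifit1 (probe set 10462623) had 38.4, 50.2 and 59.8 on ATRA arrays and 141, 63.2 and 272 on LE540 arrays, against 284, 48.8 and 39.3 on DMSO arrays. The arrays above 100 were DMSO replicate 1 and LE540 replicates 1 and 3, and every ATRA array was below every LE540 array. The change was -0.75 in ATRA vs DMSO (95% interval -2.46 to 0.96), 0.72 in LE540 vs DMSO (-0.99 to 2.43) and -1.47 in ATRA vs LE540 (-3.18 to 0.24), with limma adjusted p = 0.999, 0.776 and 0.593. Without DMSO replicate 1, the ATRA vs DMSO value was 0.15 and the LE540 vs DMSO value 1.62.

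Ifit3 (probe set 10462618) had 371, 68.6 and 641 on ATRA arrays and 211, 215 and 300.2 on LE540 arrays, against 1307, 89.1 and 174 on DMSO arrays. The highest array exceeded the lowest by 19.04-fold, and DMSO replicate 1 exceeded the geometric mean of the other 2 DMSO arrays by 10.5-fold. The 95% intervals of its changes spanned -2.46 to 2.25 in ATRA vs DMSO and -2.54 to 2.16 in LE540 vs DMSO, and both intervals include a 4-fold change in either direction. Ifit3 has a close copy, Ifit3b, with a probe set of its own, and how probes divide signal between copies this alike is uncertain. Ifit2 ran from 82.8 to 320.4 on ATRA arrays, from 88.5 to 145 on LE540 arrays and from 117 to 176 on DMSO arrays, so its highest array was ATRA replicate 3 and not DMSO replicate 1.

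**Figure D4:**
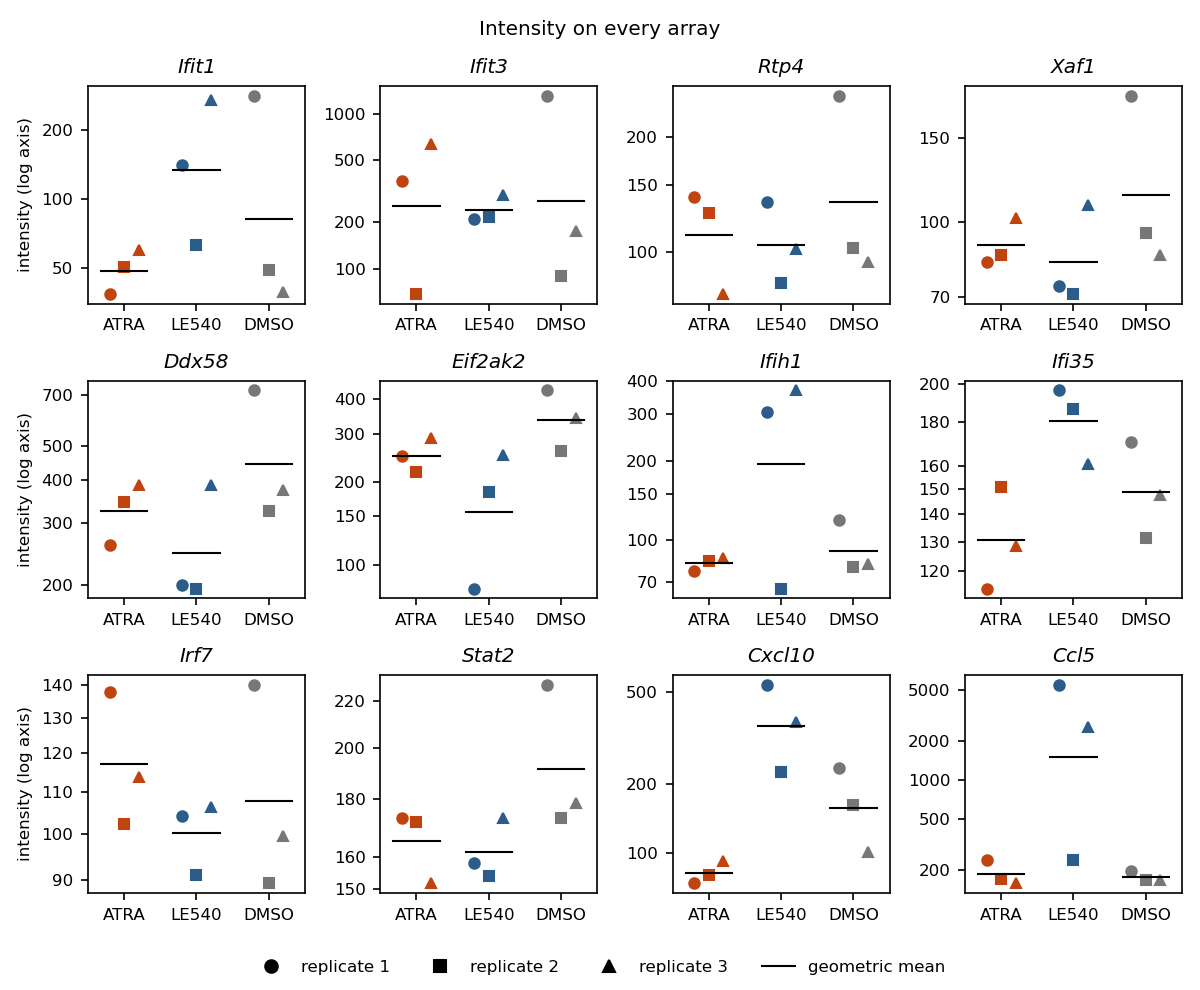
Intensity (log axis) of 12 genes on every array, by treatment (ATRA, LE540, DMSO from left to right); the symbol gives the replicate number and the line is the geometric mean of 3 arrays. DMSO replicate 1 lies above the other DMSO arrays for Ifit1, Ifit3, Rtp4, Xaf1 and Ddx58, whereas LE540 replicates 1 and 3 are high for Ifih1, Cxcl10 and Ccl5.

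Genes that handle Isg15, the ubiquitin-like modifier, did not pass in any comparison either. Usp18 (probe set 10541307), the protease that removes Isg15 and dampens receptor signalling, had 112, 81.2 and 94.9 on ATRA arrays and 93.1, 94.8 and 79.5 on LE540 arrays, against 168, 98.9 and 95.2 on DMSO arrays. LE540 arrays all lay just below the lowest DMSO array. The changes were -0.29 in ATRA vs DMSO and -0.39 in LE540 vs DMSO (limma adjusted p = 0.999 and 0.626), and -0.028 and -0.13 without DMSO replicate 1. Herc6, the Isg15 ligase of the mouse, differed by -0.051 and 0.0061. Trim25, the ubiquitin ligase that activates RIG-I, differed by 0.0062 and -0.58, with 124, 284 and 284 on LE540 arrays.

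Of the GTPases, Gbp3 (probe set 10496580), a guanylate-binding protein of the defence against intracellular microbes, had 67.5, 83.8 and 86.1 on ATRA arrays and 79.6, 69.9 and 72.8 on LE540 arrays, against 170.3, 89.1 and 86.3 on DMSO arrays. Both treatments lay below all DMSO arrays, but the lowest DMSO value exceeded the highest ATRA value by under 1 unit. The changes were -0.48 in ATRA vs DMSO and -0.56 in LE540 vs DMSO (limma adjusted p = 0.999 and 0.561), and -0.16 and -0.25 without DMSO replicate 1. Mx1, whose gene is disrupted in C57BL/6 mice, lay below the lower quartile on all 9 arrays, and Mx2 did on 8.

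The OAS enzymes make the messenger that activates RNase L. Oasl2 (probe set 10524621), an OAS-like protein, had 91.7, 156 and 98.5 on ATRA arrays and 98.5, 81.04 and 143 on LE540 arrays, against 146, 98.5 and 88.8 on DMSO arrays, with 1 high array in each group. Its changes were 0.047 in ATRA vs DMSO and -0.054 in LE540 vs DMSO. Oas1a, Oas2, Oas3 and Oasl1 differed by -0.014 to 0.12 in ATRA vs DMSO and by 0.075 to 0.33 in LE540 vs DMSO. LE540 replicate 1 was the highest array for Oas2, Oas3 and Oasl1, and DMSO replicate 1 for Oas1a.

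Rsad2, the antiviral enzyme viperin, ran from 63.6 to 76.5 on ATRA arrays, from 70.04 to 139.9 on LE540 arrays and from 69.3 to 122 on DMSO arrays. Its neighbour Cmpk2, a mitochondrial nucleotide kinase, lay below the lower quartile on 7 of 9 arrays. Neither passed, with changes of -0.30 and 0.051 in ATRA vs DMSO and 0.14 and -0.069 in LE540 vs DMSO.

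Parp9 (probe set 10435457), which works with the ubiquitin ligase Dtx3l in the interferon response, had 78.1, 80.2 and 76.6 on ATRA arrays and 73.4, 85.1 and 85.2 on LE540 arrays, against 148, 86.6 and 85.2 on DMSO arrays. The ATRA arrays lay below all DMSO arrays, whereas the highest LE540 array equalled the lowest DMSO array. Its change of -0.40 had the lowest unadjusted p of the list in ATRA vs DMSO (0.0794, limma adjusted p = 0.999), and it was -0.13 without DMSO replicate 1. In LE540 vs DMSO the change was -0.35, and -0.084 without that array. Parp14, a mono-ADP-ribosyltransferase, differed by -0.41 and -0.17 in ATRA vs DMSO and LE540 vs DMSO, and Dtx3l by -0.0093 and -0.47, none past the threshold.

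None of the 3 antigen-processing members was over 1.5-fold higher on DMSO replicate 1 than on the other DMSO arrays. Psmb8 (probe set 10444258), a subunit of the immunoproteasome, had 107, 227 and 149.96 on ATRA arrays and 145, 202 and 143 on LE540 arrays, against 172, 160.1 and 116 on DMSO arrays. Replicate 2 was the highest array with ATRA and with LE540, and the groups overlapped. Psmb9 (probe set 10450145), another immunoproteasome subunit, had 254, 316 and 271 on ATRA arrays and 235, 405 and 316 on LE540 arrays, against 317, 333 and 377 on DMSO arrays, and the highest ATRA array lay just under the lowest DMSO array. Its change in ATRA vs DMSO was -0.29 (SE 0.19, limma adjusted p = 0.999). Tap1, a subunit of the peptide transporter, differed by -0.073 and 0.11, and the score of the 3 genes was -0.22, 0.085 and -0.10 on ATRA arrays, -0.16, 0.36 and -0.031 on LE540 arrays and 0.11, -0.0092 and -0.032 on DMSO arrays.

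Of the other members, Rtp4 (probe set 10434778), a chaperone of membrane receptors that is induced by interferon, had 139.5, 127 and 77.3 on ATRA arrays and 135, 82.6 and 101 on LE540 arrays, against 257, 102 and 93.9 on DMSO arrays. Xaf1 (probe set 10378068), a factor that promotes cell death, had 82.7, 85.6 and 102 on ATRA arrays and 73.9, 70.98 and 109 on LE540 arrays, against 183, 95.05 and 85.6 on DMSO arrays. DMSO replicate 1 was the highest array for both, by 2.63-fold and 2.03-fold over the geometric mean of the other 2 DMSO arrays. Ifi35 (probe set 10381408) had 114, 151 and 128 on ATRA arrays and 196, 186 and 161 on LE540 arrays, 2 groups that did not overlap, and 170.5, 131 and 148 on DMSO arrays. Its difference in ATRA vs LE540 was -0.47 (95% interval -0.80 to -0.14, unadjusted p = 0.0104 in limma, adjusted p = 0.331). Lgals3bp, a secreted glycoprotein, differed by 0.44 in ATRA vs DMSO and Bst2, the tetherin that holds budding virus, by -0.16, neither past the threshold.

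The 12 members over 1.5-fold higher on DMSO replicate 1 than on the other 2 DMSO arrays were Ifit3 (10.5-fold), Ifit1 (6.47-fold), Rtp4, Ddx58, Xaf1, Gbp3, Irf9, Usp18, Parp9, Rsad2, Parp14 and Oasl2 (1.56-fold). The median difference on the log2 scale was 0.57 over the 11 members with the ISRE core shown above, 0.25 over the 16 whose window lacks it and 0.37 over the 9 with no window in the table. The 2 sets with a window overlapped, from -0.083 to 3.39 with the core and from -0.16 to 1.02 without it. Outside the list, 5 of 34 further interferon-stimulated genes (Iigp1, Gbp5, Trim21, Phf11d and Cxcl10) exceeded 1.5-fold by this measure, against 2.16% of all probe sets. Cardiomyocyte genes moved with this array: 6 of 10 markers (Myh6, Actc1, Tnni3, Myl2, Ryr2 and Pln) did as well. The summed intensity of the 10 was 11655 to 19849 on ATRA arrays, 11209 to 20334 on LE540 arrays and 12021 to 24820 on DMSO arrays, with DMSO replicate 1 the highest of all 9 and none of the markers at 0. The part of these cells in the result was not tested, and in pooled tissue fewer cells of a type and less RNA per cell cannot be told apart.

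Macrophage markers did not stand out on that array: 1 of 14 (Lyz2) exceeded 1.5-fold, and the summed intensity of the 14 was 3044 to 5631 on ATRA arrays, 3818 to 5295 on LE540 arrays and 3333 to 6318 on DMSO arrays, with 0.0058, -0.19 and 0.31 as the scores of the DMSO arrays. None of 10 lymphocyte and plasmacytoid dendritic cell markers exceeded 1.5-fold there, and 4 of them lay below the lower quartile on all 9 arrays. None of 8 neutrophil markers did, although their sum reached 1112 on LE540 replicate 2, against 476 to 618 on the other 8 arrays. None of 12 endothelial markers exceeded 1.5-fold there, with sums of 2659 to 6117 on ATRA arrays, 1788 to 3603 on LE540 arrays and 1935 to 3564 on DMSO arrays.

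**Figure D5:**
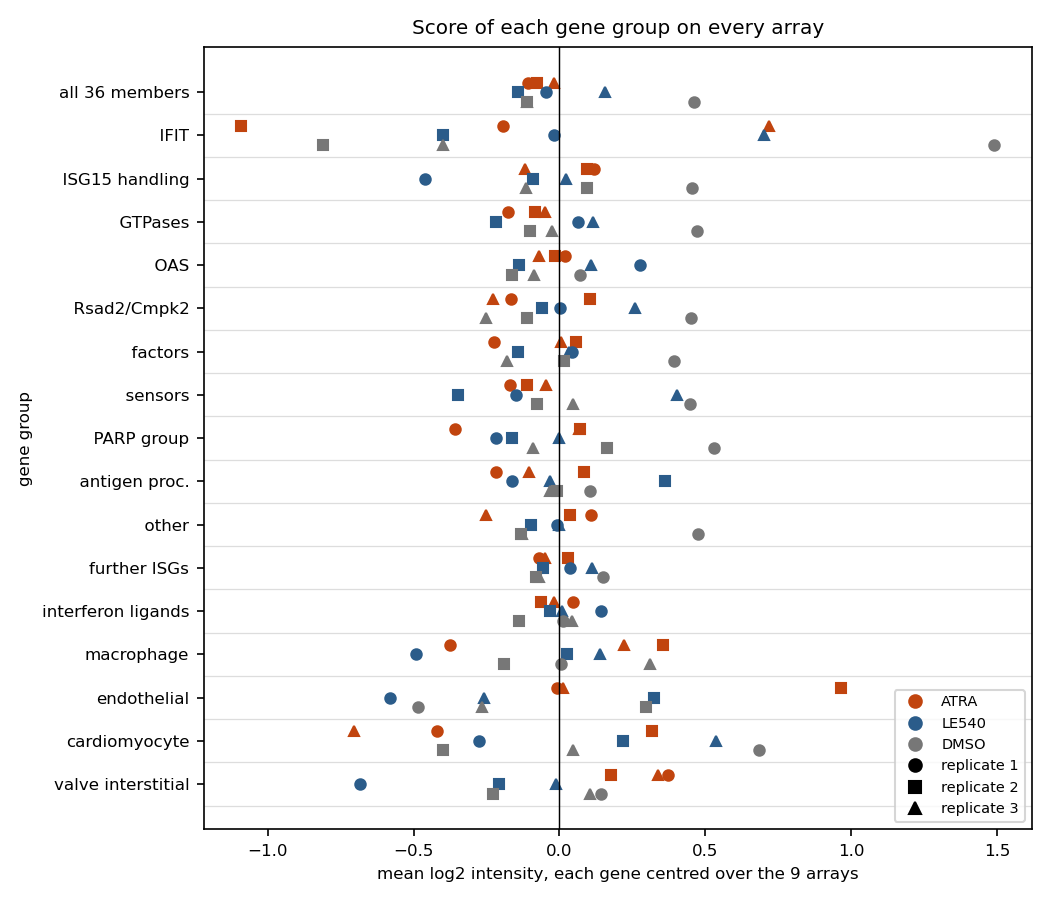
Score of each role group of the members and of the other gene lists on every array (mean of log2 intensities after centring each gene on its 9 arrays), coloured by treatment with the symbol giving the replicate. DMSO replicate 1 has the highest member score, 0.46, and the highest cardiomyocyte score, 0.68.

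Upstream of the members, the ligands ranged from dim to bright probe sets. Of 20 interferon genes listed, 16 were measured, of which 5 lay below the lower quartile on all 9 arrays and 4 (Ifna5, Ifna14, Ifnz and Ifnl2) above the median on all 9. How far a bright probe set here reflects transcript of the named gene was not tested. Ifnb1, interferon beta, had 35.3, 33.8 and 33.8 on ATRA arrays and 38.3, 32.5 and 33.7 on LE540 arrays, against 33.8, 35.9 and 34.7 on DMSO arrays. Its values are below the lower quartile of each array and its groups overlapped. None of the 16 passed in any comparison, and the largest differences from DMSO were those of Ifnz, interferon zeta, at 0.42 with ATRA and 0.44 with LE540, and of Ifna12, an alpha interferon, at -0.29 and 0.092.

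Receptors and signalling genes did not pass in any comparison either (0 of 13 measured). Ifnar1 had 386, 401 and 326 on ATRA arrays and 409.6, 409 and 442 on LE540 arrays, against 435, 449.8 and 388 on DMSO arrays, a change of -0.20 in ATRA vs DMSO (limma adjusted p = 0.999). Ifngr2, a chain of the interferon gamma receptor, differed by 0.37 in ATRA vs DMSO, and Ptpn2, a phosphatase that restrains JAK signalling, by 0.37 in LE540 vs DMSO, the largest of this group. Of 15 measured genes for sensing and induction 0 passed, with Samhd1, a nucleotide hydrolase, at -0.51 and Tlr3, the endosomal sensor of double-stranded RNA, at -0.50 in LE540 vs DMSO. Among 14 antigen presentation genes 0 passed, the largest differences being 0.35 for H2-Ab1 and 0.32 for H2-Aa, chains of class II molecules, in LE540 vs DMSO.

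Of 34 further interferon-stimulated genes measured outside the list, 0 passed in ATRA vs DMSO or LE540 vs DMSO. In ATRA vs LE540 2 passed, against 0.603% of all probe sets. Cxcl10 (probe set 10531415), a chemokine for T cells, had 74.3, 80.2 and 92.96 on ATRA arrays, against 539, 226 and 374 on LE540 arrays, with 235, 162 and 102 on DMSO arrays. Every ATRA array was below every DMSO array, LE540 and DMSO arrays overlapped, and Cxcl10 was lower in ATRA than in LE540 by a log2 difference of -2.12 (SE 0.36, limma adjusted p = 0.0614). Gbp9 (probe set 10531980), a guanylate-binding protein, had 280.2, 305 and 209.8 on ATRA arrays, against 129.9, 141 and 136 on LE540 arrays, with 255, 171 and 208 on DMSO arrays. It was higher in ATRA than in LE540 by 0.95 (SE 0.18, limma adjusted p = 0.091), so these 2 genes differed in opposite directions. Leaving out any 1 of 6 arrays (each ATRA array, LE540 replicate 1 or 3, or DMSO replicate 2) moved the limma adjusted p of Cxcl10 to between 0.101 and 0.199. For Gbp9 any array other than ATRA replicate 3 did so, with 0.105 to 0.276, and the replicate number as a block gave 0.107.

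Ccl5 (probe set 10389207), a chemokine that draws leukocytes, had 239.6, 169 and 159 on ATRA arrays and 5451, 238 and 2576 on LE540 arrays, against 196, 167 and 168 on DMSO arrays. The 2 LE540 arrays high for Ifih1, replicates 1 and 3, were the ones high for Ccl5. Its change in LE540 vs DMSO was 3.08 (95% interval 0.96 to 5.21, limma adjusted p = 0.502). Without LE540 replicate 2 it was 4.41, past the threshold (limma adjusted p = 0.0108), as were 98 probe sets in all. With LE540 replicate 1 left out it did not pass. Macrophage markers on LE540 arrays had scores of -0.49, 0.025 and 0.14 and sums of 3818, 4356 and 5295, both lowest on replicate 1. Their part in the result was not tested.

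Among genes outside the list, the 5 whose log2 values correlated most with the member score over the 9 arrays were Negr1 (Pearson r = 0.96), Mybpc3 (0.96), Gm10768 (0.956), Ifit3b (0.942) and Gm9871 (0.936). Mybpc3 encodes a myosin-binding protein of heart muscle, and Ifit3b is the copy of Ifit3 named above. Spearman's rho over the same arrays was 0.695, 0.667, 0.891, 0.9 and 0.833 in that order. Without DMSO replicate 1 and LE540 replicate 3, the 2 arrays whose score lies farthest from the median, r over 7 arrays was 0.465 for Negr1, 0.257 for Mybpc3, 0.784 for Gm10768, 0.825 for Ifit3b and 0.729 for Gm9871. Gm10768 and Gm9871 lay below the lower quartile on all 9 arrays, and Ifit3b did on 8 of them. These correlations are descriptions of ranked genes with no test.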

How the data were processed

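RNA of 9 pools was hybridised to 1 array each. The deposited values are RMA intensities on a linear scale, made by the authors with Affymetrix Expression Console 1.1, per the submitters' processing notes, which name no genome build. They were taken to log2 here, and RMA compresses dim probe sets. The arrays did not share exactly 1 distribution, with medians from 123.61 (LE540 replicate 2) to 128.13 (ATRA replicate 1). A further quantile normalization moved the count of all probe sets called in LE540 vs DMSO from 7 to 0. No depth in counts exists, and the number of arrays limits precision. Of 28270 rows, 23397 with a listed gene entered a limma fit (version 3.58.1, R 4.3.3) with 3 groups, 6 residual and 2.725 prior degrees of freedom, two-sided contrasts, Benjamini-Hochberg adjustment over all 23397, called under 0.1. Means are given with the SD over 3 arrays, and changes with the SE or 95% interval of the fit.

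Described on every array were called members, up to 10 members per treatment with the largest change among those whose arrays do not overlap DMSO, and Irf7, Irf9, Stat2, Ifit1, Usp18, Oasl2 and Psmb8. Of other lists, called genes or else the 2 largest changes were named, with Ifnar1 and Ifnb1 always. Members and lists were chosen with earlier results of these data known. The fit was tested on simulated arrays with independent noise. These held no outlying array and no shared deviation of same-numbered arrays, so the test does not cover those features of the data. Same-numbered ATRA and DMSO arrays deviated together (r = 0.143, 0.342 and 0.22), as did ATRA and LE540 arrays (0.261, 0.282 and 0.269), a pairing that comes from the labels' replicate numbers and this check.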

Additional observations from a re-analysis of the deposited data

How the results depend on the processing

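The count of called members stayed at 0 in 58 of 60 alternatives over the 3 comparisons, which changed the arrays in the fit, the normalization, filters, prior, array weights and thresholds. Alternatives with a stricter threshold reused the main fit and could not raise a count of 0. Averaging the probe sets of a member altered Irf1 alone. With each array left out in turn it ranged from 0 to 0 in ATRA vs DMSO and from 0 to 1 in LE540 vs DMSO and in ATRA vs LE540, the 1 being Ifih1 without LE540 replicate 2. With the replicate number as a block, 0 members were called in each comparison, so the pairing changed no call of a member. LE540 and DMSO arrays of equal number correlated at 0.00946, 0.215 and 0.126, with 1 of 3 closest to its own number. That check did not show a pairing of these 2 groups, and with 3 arrays a group it cannot exclude one. Over all probe sets the count called was 19 in ATRA vs DMSO (29 with the block, and 2 to 71 over all alternatives), 7 in LE540 vs DMSO (1 with the block, and 0 to 297) and 141 in ATRA vs LE540 (221 with the block, and 16 to 278). The block also ended the call of Gbp9 (adjusted p = 0.107 in limma).

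Counting each named member, comparison and alternative as 1 case, the sign changed in 32 cases, all of them for changes that had not passed. In 628 cases sign and call stayed the same, and in 2 the change came to pass the threshold. With arrays left out in turn, ATRA vs DMSO values ranged from -1.27 to 0.15 for Ifit1, -0.91 to 1.03 for Ifit3, -0.26 to 0.034 for Ifih1, -0.38 to 0.11 for Irf9, -0.011 to 0.31 for Irf7, -0.19 to 0.26 for Oasl2 and -0.22 to 0.32 for Psmb8. LE540 vs DMSO values ranged from -0.998 to 0.94 for Ifit3, -0.24 to 0.087 for Irf7, -0.080 to 0.47 for Irf9, -0.28 to 0.16 for Oasl2, -0.042 to 0.24 for Psmb8, -0.33 to 0.069 for Psmb9 and -0.091 to 0.14 for Dhx58. Dhx58 was at -0.0027 after quantile normalization, and Ifit3 at 0.092 in ATRA vs DMSO with array weights. Without both DMSO replicate 1 and LE540 replicate 1, a setting chosen after seeing the data, ATRA vs DMSO gave 0.10 for Irf9, 0.15 for Ifit1, 1.03 for Ifit3 and 0.034 for Ifih1, and LE540 vs DMSO gave 0.016 for Psmb9, 0.061 for Irf7, 0.20 for Oasl2 and 1.03 for Ifit3. The cause was not tested. A filter that kept only probe sets with a mean log2 value above the median of those tested left 14 members. Signal near background, as for Mx1, limits what a change can show.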
